A study of Bos taurus with 18 samples.

Results

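The theca of the bovine preovulatory follicle was compared after and before the surge of luteinizing hormone (LH). The comparison takes every array labelled theca, 6 of the 18 arrays of the series, with 3 in each group. The after-LH group holds theca of cows A, B and C, collected 22 h after gonadotropin-releasing hormone (GnRH) was given to set off the surge. A label on the growth conditions counts the same 22 h from the surge itself, and the labels do not settle which is meant. The before-LH group holds theca of cows D, F and G, whose follicles were taken with no GnRH given. Each cow (Bos taurus) gave its 1 dominant follicle, so an array is an animal and no cow was sampled at both times. Breed, age and any earlier hormone treatment are not given in the sources used here. The other arrays hold the membrane-associated granulosa and the aspirated antral granulosa of the same follicles.

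The theca is the vascular layer outside the basement membrane of the follicle. Its interna cells carry LH receptors and turn cholesterol into androgen, which the granulosa cells on the other side of the membrane turn into oestradiol. Fibroblasts, smooth muscle, endothelium and immune cells make up much of the rest of the layer. In the hours after the surge the follicle stops making oestradiol, its wall is remodelled and opens, and theca and granulosa go on to form the corpus luteum.

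Values are log2 signals of Affymetrix probe sets after RMA, a background correction, normalization and summary of the probes. A change is the mean after LH minus the mean before LH on that scale, with 3 cows per group, given as a log2 fold change ± standard error. "Rose", "fell" and "called" mean an adjusted p under 0.05 in limma, where p-values of all 24016 probe sets were adjusted by the Benjamini-Hochberg method. A gene with several probe sets is read from the brightest on average, which gives 9155 genes. There are no detection calls, and 4.62 was taken as a lower limit, the highest mean among the 8005 dimmest probe sets. Where all arrays of a group lay below it, the change is given as a bound against that limit. The standard error uses a spread that all 6 groups of the series share, granulosa included, so it need not match the spread of the theca arrays. A fit of the theca arrays alone is therefore given where it alters a call. The theca arrays had medians of 5.81 to 5.86, and correlations within a group ran between 0.974 and 0.989. On their own, the 6 arrays had a first principal component with 47.7% of the variance, with scores of 19.9 to 53.8 after LH and -41.0 to -33.8 before. On the second, with 23.6%, cow C lay at -39.8, away from cows A and B at 22.6 and 32.4.

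Of the 9155 genes 475 changed in theca (5.19%), 214 upward (2.34%) and 261 downward (2.85%). At least 2-fold changes numbered 153 upward and 128 downward, and the median change of all genes was -0.01. Among probe sets, 24016 gave 941 calls (3.92%), and the arrays after LH and before LH did not overlap for 20.4% of probe sets and 23.4% of genes. Leaving out cow A gave 439 calls, cow D 465 and cow G 571, and the theca arrays alone gave 514, of which 451 were among the 941. A core of 151 genes, 66 higher and 85 lower, was called in the fit of all arrays, in each fit without 1 cow and in the theca arrays alone. A gene of this core is described as stable.

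**Figure D1:**
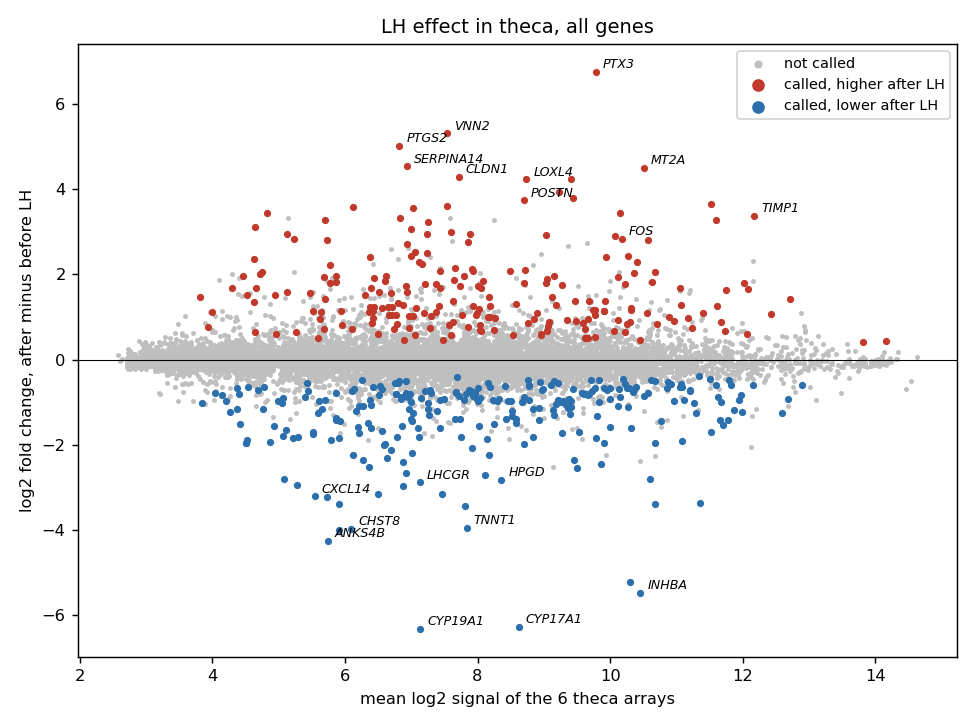
Log2 fold change in theca (after minus before LH) against the mean log2 signal of the 6 theca arrays for all genes, with called genes in red (higher after LH) and blue (lower). PTX3 lies highest at 6.76, and CYP19A1 and CYP17A1 lie lowest at -6.32 and -6.27.

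The theca arrays carried many of the markers of a theca layer, together with signal for granulosa genes. Of 16 endothelial markers 14 were higher in theca than in membrane granulosa in 3 of 3 cows after LH, and 15 before. Fibroblast markers were higher for 13 of 17 at both times, and smooth muscle markers for 9 of 9 after LH and 8 of 9 before. In 3 of 3 cows 3 fibroblast markers were lower in theca after LH and 1 before, and 1 smooth muscle marker was lower before. INSL3, the theca's insulin-like peptide, stood at 14.31, 14.60 and 13.95 in cows A, B and C after LH, against 14.68, 14.84 and 14.83 in cows D, F and G before. Its arrays after LH were slightly below all those before, at levels among the brightest of any gene, where a difference can be understated, and it was not called (-0.50 ± 0.63, adjusted p = 0.806 in limma). Markers of theca interna were higher in theca than in membrane granulosa for 6 of 11 at both times. They were lower in theca in 3 of 3 cows for 1 of 11 after LH and 4 of 11 before.

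Granulosa markers gave signal on the theca arrays at both times, and 9 of 17 fell. In 3 of 3 cows they were lower in theca than in membrane granulosa of the same cow for 10 of 17 after LH and for 16 of 17 before. The other way, 3 of 17 were higher in theca in 3 of 3 cows after LH and 0 before. These were CCND2 at 154% to 304%, TNNI3 at 153% to 208% and GJA1 at 101% to 106% of the membrane granulosa signal. CYP19A1, the aromatase that makes oestradiol and a gene of granulosa cells, had a theca signal of 11.9%, 27.4% and 2.41% of that of membrane granulosa in cows D, F and G before LH. Over the 17 markers the median share was 56.5%, 43.0% and 70.1% in cows A, B and C after LH, against 32.6%, 27.4% and 21.2% in cows D, F and G before. After LH some markers, such as CYP19A1, CHST8 and LRP8, lay below the limit in theca and near it in membrane granulosa. Their shares after LH therefore do not measure granulosa signal, and they enter the medians after LH. The summed linear signal of the markers in theca was 22605 to 24502 after LH and 39014 to 64270 before, with no overlap. In membrane granulosa it was 34426 to 45917 after LH and 126249 to 138695 before. Of the 17 markers 0 rose in theca, and the median change was -1.43. In whole tissue, fewer cells of a type and less RNA per cell cannot be told apart. The part of granulosa RNA in any fall reported for theca was not tested, and membrane granulosa levels are given beside the falls of granulosa markers and of some other genes.

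**Figure D2:**
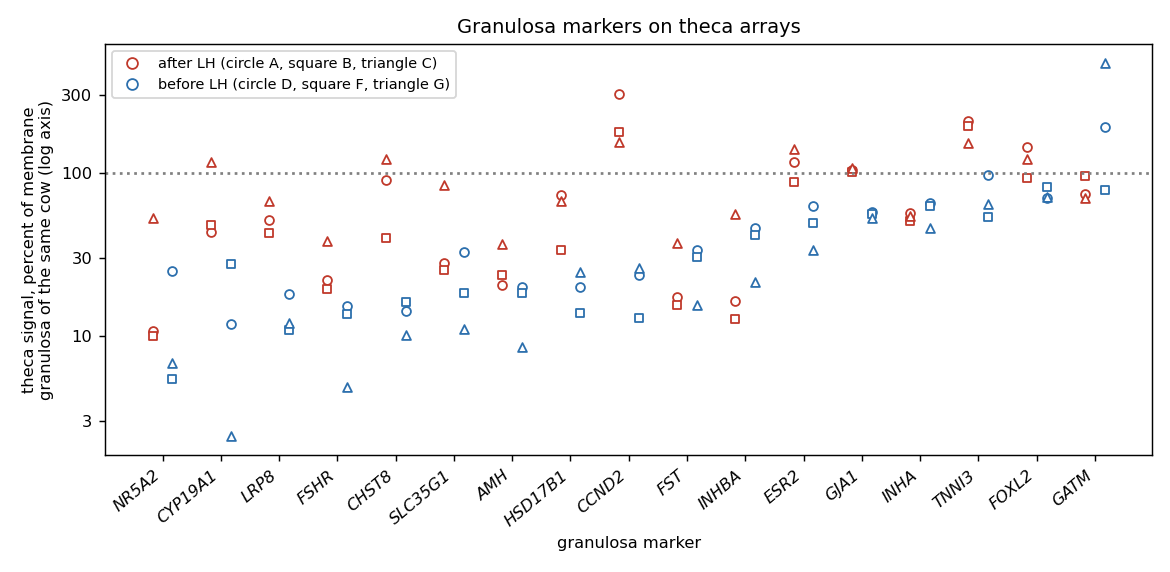
Signal of 17 granulosa markers on theca arrays as a percentage of the membrane granulosa signal of the same cow (log axis), after LH (cows A, B, C) and before LH (cows D, F, G). Before LH most points lie between 10% and 100%, with CYP19A1 of cow G lowest at 2.41%.

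Of 14 measured genes of androgen synthesis and theca hormone 3 fell and 0 rose, with a list median of -0.45. CYP17A1, the enzyme that commits steroids to androgen, stood at 5.28, 5.57 and 5.61 in cows A, B and C after LH, against 12.67, 10.48 and 12.11 in cows D, F and G before. Every cow after LH lay near the lower end of the scale, and every cow before LH far above. The change was -6.27 ± 0.93 (adjusted p = 0.00095 in limma). LHCGR, the LH receptor, stood at 5.57, 6.08 and 5.43 after LH and 9.28, 7.96 and 8.46 before (-2.88 ± 0.35, adjusted p = 0.000185). NR5A1, a nuclear receptor that drives steroidogenic genes, stood at 7.75, 7.91 and 7.87 after LH and 9.30, 9.01 and 9.66 before (-1.48 ± 0.19, adjusted p = 0.000323). All 3 falls were stable, and the groups did not overlap for any of them. The summed linear signal of the 11 theca interna markers was also lower, at 32259 to 42026 after LH and 48630 to 61983 before, with 3 of them called lower and a median change of -0.50; the part of interna cell number in these falls was not tested. A second LHCGR probe set lay below the lower limit on all theca arrays, and another gave -2.99. A dimmer NR5A1 probe set was called at -1.12, and a still dimmer one was not, at -0.41.

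The genes that bring cholesterol to the steroid pathway and make progesterone behaved less evenly. STAR, which carries cholesterol into mitochondria, stood at 12.28, 11.82 and 12.29 after LH and 13.57, 12.95 and 13.15 before. The groups did not overlap, yet the difference was not called (-1.1 ± 1.22, adjusted p = 0.768, and 0.055 with the theca arrays alone). This standard error holds the spread of the granulosa arrays too and does not measure the spread among the theca arrays. CYP11A1, the side-chain cleavage enzyme, stood at 10.77, 10.74 and 12.92 after LH and 13.18, 12.23 and 13.00 before, and HSD3B1, which completes progesterone, at 11.06, 9.66 and 13.50 after LH and 12.16, 11.22 and 12.03 before. Cow C held the highest level of both among the cows after LH, and neither was called (-1.33 ± 1.23 and -0.39 ± 0.88, adjusted p = 0.701 and 0.904). Among cofactors TSPO, an outer mitochondrial membrane protein linked to cholesterol, rose (1.81 ± 0.26, adjusted p = 0.000845, stable), as did its partner ACBD3 (0.53 ± 0.11, adjusted p = 0.00936), while the cytochrome b5 reductase CYB5R3 fell (-1.55 ± 0.30, adjusted p = 0.00735, stable). The ACBD3 call was lost without cow A, D or F (0.0524 to 0.0719) and with the theca arrays alone (0.0895), and a dimmer ACBD3 probe set was not called at 0.46.

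On the side of oestrogen, progesterone and glucocorticoid enzymes 4 of 12 genes fell and 1 rose. HSD11B1, which regenerates active glucocorticoid inside cells, stood at 7.96, 7.54 and 9.17 after LH and 5.54, 5.55 and 6.27 before (2.44 ± 0.47, adjusted p = 0.00735), and the call was lost without cow D or F (0.06 to 0.0669). CYP19A1 stood at 4.08, 3.92 and 3.91 after LH, below the limit in all 3 cows, and at 10.85, 11.82 and 8.21 before. Its fall was at least 5.67 (adjusted p = 5.14e-05, stable), and a dimmer probe set that gave -1.59 was not called. HSD17B1, which makes oestradiol from oestrone, stood at 5.04, 5.23 and 5.06 after LH and 7.30, 7.76 and 7.81 before (-2.51 ± 0.35, adjusted p = 0.000643). Both are granulosa markers, with means of 4.66 and 5.97 in membrane granulosa after LH and 13.73 and 10.02 before. The other falls were HSD17B8 (-0.98 ± 0.16, adjusted p = 0.00267, stable) and HSD17B10 (-0.58 ± 0.14, adjusted p = 0.0336), which handle steroids and fatty acids in mitochondria; the HSD17B10 call was lost without cow A, B, D, F or G (0.0569 to 0.166) and with the theca arrays alone (0.0784).

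**Figure D3:**
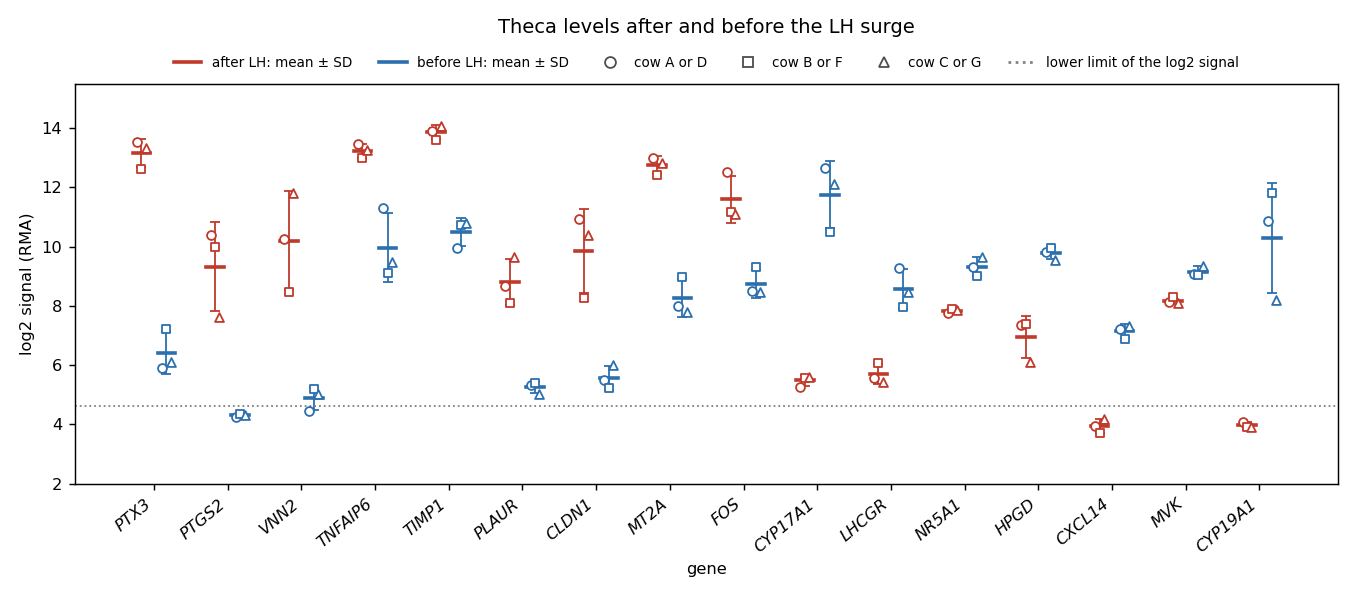
Log2 signal of 16 genes in theca of each cow, after LH (red, left; cows A, B, C) and before LH (blue, right; cows D, F, G), with mean ± SD (n = 3). The groups do not overlap for any of the 16; CYP17A1 lies at 5.28, 5.57 and 5.61 after LH and at 12.67, 10.48 and 12.11 before.

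Genes of cholesterol synthesis and uptake were mostly lower after LH. Of 21 measured genes 6 fell, 0 rose and 20 had a negative change, with a median of -1.09 against -0.01 for all genes. There were 15 lower genes at an unadjusted p under 0.05, but the share of all genes at that threshold was not counted, so this number has no reference. The count of called genes turned on 1 animal: 14 genes fell without cow C, and 2 in each fit without another cow. MVK, mevalonate kinase, stood at 8.12, 8.30 and 8.10 after LH and 9.09, 9.03 and 9.35 before, and its fall was stable (-0.99 ± 0.13, adjusted p = 0.000322). INSIG1, the sterol-regulated brake on the pathway, stood at 7.58, 7.09 and 10.01 after LH and 11.33, 10.78 and 10.21 before, with cow C close to the cows before LH (-2.55 ± 0.67, adjusted p = 0.0469). MSMO1, a late demethylase, stood at 11.53, 11.38 and 12.99 after LH and 13.46, 12.71 and 13.48 before, again with cow C nearest to them (-1.25 ± 0.32, adjusted p = 0.0441). FDFT1, squalene synthase, and MVD also fell (-1.73 ± 0.42 and -0.91 ± 0.23, adjusted p = 0.0307 and 0.037). The INSIG1 call was lost without cow A, B, D, F or G (0.113 to 0.252) and with the theca arrays alone (0.167), the MSMO1 call without cow A, B, D, F or G (0.0534 to 0.271) and with the theca arrays alone (0.258), the FDFT1 call without cow A, B, D, F or G (0.0578 to 0.206) and with the theca arrays alone (0.0847) and the MVD call without cow A, B, D, F or G (0.117 to 0.231) and with the theca arrays alone (0.122). Of the dimmer probe sets, 1 of MVK was called at -1.50, while another of MVK at -0.45 and 1 of FDFT1 at -1.81 were not. The sixth fall was LRP8, a lipoprotein receptor and granulosa marker, by at least 2.12 (adjusted p = 0.00209, stable), with membrane granulosa means of 4.73 after LH and 9.66 before.

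Among 19 hormone receptors LHCGR and NR3C1, the glucocorticoid receptor, fell and 0 rose. NR3C1 stood at 7.36, 7.59 and 6.91 after LH and 7.85, 8.12 and 8.25 before (-0.79 ± 0.20, adjusted p = 0.0375), a small difference whose call was lost without cow A, C, D, F or G (0.0875 to 0.174) and with the theca arrays alone (0.133). All theca arrays lay below the limit for the oestrogen receptor ESR1 and the progesterone receptor PGR. ESR1 stood at 3.36, 3.45 and 3.68 after LH and 3.24, 3.06 and 3.30 before, and PGR at 3.92, 3.60 and 3.97 after LH and 3.47, 3.59 and 3.87 before. Neither was called (0.30 ± 0.18 and 0.18 ± 0.12, adjusted p = 0.48 and 0.533). FSHR, a granulosa receptor, stood at 4.21, 4.69 and 3.87 after LH and 5.61, 4.996 and 4.02 before in theca (-0.62 ± 0.43, adjusted p = 0.566).

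The activin subunit INHBA and its binding protein follistatin fell, and both were brighter in membrane granulosa at both times. INHBA stood at 7.70, 8.38 and 7.06 after LH and 13.57, 13.49 and 12.52 before (-5.48 ± 0.70, adjusted p = 0.000297, stable). Membrane granulosa means of INHBA were 9.86 after LH and 14.74 before, and its theca signal before LH was 45.7%, 41.5% and 21.2% of theirs in cows D, F and G. FST, follistatin, which binds activin, stood at 10.82, 10.81 and 10.37 after LH and 12.87, 12.77 and 11.45 before (-1.70 ± 0.42, adjusted p = 0.0332), and the call was lost without cow A, D or F (0.119 to 0.209) and with the theca arrays alone (0.0893). Membrane granulosa means of FST were 12.89 after LH and 14.36 before. INHBA and FST were the 2 falls among 29 genes of the TGF-beta family, and 0 rose. In the IGF list of 14 genes STC1, stanniocalcin, was the 1 called gene and was far brighter in theca than in membrane granulosa. It stood at 7.59, 8.78 and 8.46 after LH and 10.13, 11.18 and 10.58 before (-2.35 ± 0.44, adjusted p = 0.0058), and membrane granulosa averaged 5.54 after LH and 6.39 before. The STC1 call was lost without cow A (0.0742). The WNT list had LEF1, a transcription factor of that pathway, as its 1 called gene of 20 (1.1 ± 0.22, adjusted p = 0.00919), and that call was lost without cow D or G (0.0659 to 0.0802) and with the theca arrays alone (0.113). As 5.19% of all genes were called, 1 call in the IGF or WNT list is near the general share.

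In the prostaglandin pathway 2 synthesis genes rose and a breakdown enzyme fell, of 10 genes measured. PTGS2, the inducible cyclooxygenase, stood at 10.40, 9.98 and 7.61 in cows A, B and C after LH, against 4.26, 4.34 and 4.33 in cows D, F and G before, where all lay below the limit. Its rise was at least 4.70 (adjusted p = 0.000135, stable), with cow C lowest among the cows after LH. HPGD, which breaks prostaglandins down, stood at 7.34, 7.38 and 6.12 after LH and 9.82, 9.95 and 9.56 before (-2.82 ± 0.37, adjusted p = 0.000372, stable). In membrane granulosa HPGD averaged 3.99 after LH and 5.10 before, so its theca level was well above the granulosa level at both times. PTGES, prostaglandin E synthase, stood at 8.65, 9.27 and 7.52 after LH and 6.26, 6.33 and 6.604 before (2.08 ± 0.52, adjusted p = 0.0368), and the call was lost without cow A, B, D, F or G (0.0508 to 0.196) and with the theca arrays alone (0.061). PTGIS, prostacyclin synthase, stood at 9.76, 9.70 and 10.40 after LH and 7.29, 7.75 and 8.13 before. Its arrays did not overlap, and it was called with the theca arrays alone (adjusted p = 0.015) but not in the fit of all arrays (2.23 ± 0.89, adjusted p = 0.224).

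The pentraxin and the hyaluronan-binding protein of the ovulatory matrix rose to bright levels in the theca after LH. PTX3, which cross-links hyaluronan in the cumulus matrix, stood at 13.52, 12.62 and 13.34 after LH and 5.91, 7.205 and 6.10 before (6.76 ± 0.29, adjusted p = 7.78e-09, stable). TNFAIP6, its partner in that matrix, stood at 13.47, 12.98 and 13.27 after LH and 11.30, 9.10 and 9.49 before (3.27 ± 0.61, adjusted p = 0.00558), and its adjusted p was 0.0623 without cow A. A dimmer TNFAIP6 probe set was called at 3.71. These were the 2 rises among 16 genes, and 0 fell. CD44, the hyaluronan receptor, stood at 8.02, 8.42 and 7.04 after LH and 6.03, 7.16 and 6.66 before and was not called (1.21 ± 0.51, adjusted p = 0.26). In membrane granulosa PTX3 averaged 13.41 after LH and 3.94 before, and TNFAIP6 14.43 after LH and 12.70 before.

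Some inhibitors of proteases and genes of the plasminogen system rose, while most matrix proteases did not pass the test. Of 19 genes 4 rose and 0 fell, with a median of 0.61. TIMP1, an inhibitor of metalloproteinases, stood at 13.91, 13.60 and 14.08 after LH and 9.96, 10.73 and 10.79 before (3.37 ± 0.42, adjusted p = 0.000239, stable). PLAUR, the urokinase receptor, stood at 8.66, 8.10 and 9.64 after LH and 5.32, 5.40 and 5.02 before (3.55 ± 0.66, adjusted p = 0.00568, stable). PLAT, tissue plasminogen activator, stood at 12.22, 11.51 and 11.39 after LH and 9.71, 9.77 and 9.45 before (2.06 ± 0.27, adjusted p = 0.000361, stable). For TIMP1, PLAUR and PLAT every array after LH lay above every array before it. SERPINA14, a serpin of the uterus in ruminants, stood at 9.40, 9.69 and 8.51 after LH and 3.58, 6.78 and 3.61 before, with cow F high among the cows before LH (4.54 ± 0.83, adjusted p = 0.00478), and the call was lost without cow D or G (0.0581 to 0.064) and with the theca arrays alone (0.0527). A dimmer SERPINA14 probe set was called at 4.45. Of 24 matrix proteases MMP14, a membrane-bound metalloproteinase, rose (0.82 ± 0.17, adjusted p = 0.0133) and 0 fell, where 2.34% of all genes rose. The MMP14 call was lost without cow A, D or F (0.0654 to 0.0874) and with the theca arrays alone (0.0532). A dimmer MMP14 probe set was called at 0.79, and another lay below the limit on all theca arrays. ADAMTS1, which cuts versican in the ovulating follicle, stood at 11.88, 10.83 and 11.24 after LH and 10.15, 10.59 and 9.72 before and missed the threshold (1.17 ± 0.32, adjusted p = 0.0568), though a dimmer probe set passed it at 1.55.

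The rises among collagen genes were of proteins that process collagen, and no fibrillar collagen was called in the fit of all arrays. COL5A2, a chain of type V collagen, stood at 10.74, 10.68 and 10.80 after LH and 9.16, 9.52 and 9.88 before, without overlap (1.22 ± 0.53, adjusted p = 0.28). It was called with the theca arrays alone (adjusted p = 0.0306) and without cow C (0.0258). Of 23 genes of this list 3 rose. LOXL4, a lysyl oxidase that cross-links collagen, stood at 10.86, 11.53 and 10.17 after LH and 5.85, 7.32 and 6.69 before (4.23 ± 0.47, adjusted p = 9.14e-05, stable). PCOLCE2, an enhancer of procollagen cleavage, stood at 10.28, 10.27 and 10.94 after LH and 7.34, 7.94 and 7.41 before (2.93 ± 0.37, adjusted p = 0.000283, stable). P4HA3, a collagen prolyl hydroxylase, rose less (1.28 ± 0.30, adjusted p = 0.0243), and its call was lost without cow A, C or D (0.0627 to 0.136) and with the theca arrays alone (0.113). Matricellular proteins, which signal to cells from the matrix, rose for 3 of 24 genes. POSTN, periostin, stood at 10.36, 10.29 and 11.04 after LH and 7.07, 6.55 and 6.86 before (3.74 ± 0.39, adjusted p = 5.19e-05, stable). THBS2, a thrombospondin, stood at 11.62, 11.79 and 11.03 after LH and 8.45, 9.13 and 9.61 before (2.42 ± 0.31, adjusted p = 0.000322, stable). TNC, tenascin C, rose as well (1.74 ± 0.41, adjusted p = 0.0268), its call was lost without cow C, D or G (0.0881 to 0.19) and with the theca arrays alone (0.0898), and a dimmer probe set gave 0.22 and was not called.

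Small proteoglycans and elastic fibre genes moved both ways. FBLN1, fibulin 1, rose (1.75 ± 0.31, adjusted p = 0.0039), with a call lost only with the theca arrays alone (0.093), and a dimmer probe set was called at 2.01. ASPN, asporin, stood at 7.03, 7.25 and 6.005 after LH and 9.56, 8.52 and 10.33 before (-2.71 ± 0.40, adjusted p = 0.000966). OGN, osteoglycin, stood at 10.81, 10.49 and 9.11 after LH and 11.97, 11.76 and 12.39 before (-1.90 ± 0.42, adjusted p = 0.0158), with cow C lowest. Both are genes of stromal cells, and their membrane granulosa means lay far below the theca levels, at 4.16 and 7.14 after LH and 4.91 and 8.45 before. The ASPN call was lost with the theca arrays alone (0.0509) and the OGN call without cow C, D or G (0.0681 to 0.105) and with the theca arrays alone (0.0953). Summed linear signals of 17 fibroblast markers overlapped between the groups, at 55995 to 67271 after LH and 47988 to 62808 before.

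Of 22 genes of complement and innate recognition 4 rose and 0 fell, with a median of 0.41; PTX3 is among them. C1R, a protease of the first complement component, stood at 9.49, 8.69 and 8.51 after LH and 6.85, 7.58 and 7.18 before (1.69 ± 0.28, adjusted p = 0.0025, stable). Its partner C1S stood at 10.62, 10.01 and 9.37 after LH and 7.23, 8.94 and 8.15 before (1.89 ± 0.42, adjusted p = 0.0191), and CD14, a receptor for bacterial lipid on monocytes, at 9.65, 8.88 and 8.37 after LH and 7.13, 6.96 and 6.58 before (2.08 ± 0.51, adjusted p = 0.0313). Cow A held the highest and cow C the lowest level of C1R, C1S and CD14 after LH. The C1S call was lost without cow A, B, D or G (0.0689 to 0.136) and with the theca arrays alone (0.122) and the CD14 call without cow A, B, F or G (0.0905 to 0.201). A dimmer CD14 probe set was called at 1.25.

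Cytokine genes rose for 3 of 22 and fell for 1. IL18, an inflammasome cytokine, stood at 11.66, 11.04 and 11.86 after LH and 8.14, 9.88 and 7.83 before (2.91 ± 0.62, adjusted p = 0.0136), and the call was lost without cow A or G (0.0919 to 0.0992). IL6 rose by at least 0.51, with every cow before LH under the limit (adjusted p = 0.015), and OSMR, a receptor of that cytokine family, rose by 1.37 ± 0.30 (adjusted p = 0.0178). The IL6 receptor IL6R fell by 1.22 ± 0.32 (adjusted p = 0.0464), and its membrane granulosa means were 5.33 after LH and 9.64 before. The IL6 call was lost without cow A, B, D, F or G (0.0536 to 0.094) and with the theca arrays alone (0.128), the OSMR call without cow A, D, F or G (0.0646 to 0.114) and the IL6R call without cow A, B, D, F or G (0.0632 to 0.263) and with the theca arrays alone (0.122). Among chemokines GRO1, which draws neutrophils, rose (1.96 ± 0.42, adjusted p = 0.0148), and its call was lost without cow A, B, D or G (0.052 to 0.109). Of the dimmer probe sets, 1 of OSMR was called at 1.78, while another of OSMR at 1.01 and 1 of GRO1 at 1.47 were not. CXCL14 went the other way: it stood at 3.94, 3.69 and 4.19 after LH, below the limit in all 3 cows, and at 7.23, 6.89 and 7.33 before, a stable fall of at least 2.52 (adjusted p = 1.14e-07). CXCL14 averaged 3.54 in membrane granulosa after LH and 3.88 before, under the limit at both times.

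Over all genes 2.34% rose and 2.85% fell. Of 23 leukocyte markers 3 rose and 0 fell, with a median of 0.04. Their summed linear signal was 3685 to 5900 after LH and 2155 to 3080 before, with no overlap. Without KIT, left out after its values were seen, the sums overlapped, at 2142 to 3108 after LH and 1603 to 2657 before. Besides CD14 the rises were FCER1A, an immunoglobulin E receptor of mast cells, by at least 0.67 (adjusted p = 0.013), and NKG7, of cytotoxic cells, by 0.64 ± 0.17 (adjusted p = 0.0453). PTPRC, the common leukocyte antigen and named here outside the rule after its values were seen, stood at 7.92, 8.17 and 7.04 after LH and 7.80, 9.31 and 8.001 before, overlapping (-0.66 ± 0.41, adjusted p = 0.515). KIT, a mast cell and stem cell factor receptor that ovarian theca also expresses, stood at 11.45, 10.74 and 10.59 after LH and 9.40, 8.73 and 9.11 before; it was called with the theca arrays alone (adjusted p = 0.0262) and not in the fit of all arrays (1.85 ± 0.62, adjusted p = 0.127), where its dimmer probe sets passed at 1.72 and 1.85. The FCER1A call was lost without cow A, D or G (0.0923 to 0.103) and with the theca arrays alone (0.146) and the NKG7 call without cow A, B, D, F or G (0.0513 to 0.2), and a dimmer NKG7 probe set gave -0.03. The part of leukocyte RNA in the cytokine and complement genes was not tested.

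Of 18 immediate early genes 5 rose, 18 had a positive change and the median was 1.21. FOS, a subunit of the AP-1 transcription factor, stood at 12.52, 11.16 and 11.10 after LH and 8.49, 9.30 and 8.47 before (2.84 ± 0.44, adjusted p = 0.00147, stable). JUNB, another AP-1 subunit, stood at 10.12, 9.29 and 9.86 after LH and 7.505, 7.90 and 7.59 before (2.09 ± 0.37, adjusted p = 0.00379, stable). EGR1, a zinc finger factor induced by growth signals, stood at 11.77, 10.53 and 11.15 after LH and 8.26, 8.95 and 9.005 before (2.41 ± 0.45, adjusted p = 0.00585). ZFP36, which destabilises cytokine mRNAs, and IER2 were the other rises (2.13 ± 0.47 and 1.30 ± 0.34, adjusted p = 0.0164 and 0.0469). Without cow B 10 of the genes were called. The EGR1 call was lost without cow D (0.0687), the ZFP36 call without cow A, C or F (0.0673 to 0.144) and the IER2 call without cow A, C, D, F or G (0.125 to 0.211). Dimmer probe sets of EGR1 and IER2 gave 0.31 and 0.28 and were not called. Of 17 transcription factors of luteinization and ovulation SOX4 rose (1.57 ± 0.34, adjusted p = 0.015) and NR5A1 fell. The SOX4 call was lost without cow A, D, F or G (0.0536 to 0.0993) and with the theca arrays alone (0.0533). In the NF-kappaB and JAK-STAT feedback list BCL3, an atypical inhibitor of NF-kappaB, rose (0.88 ± 0.16, adjusted p = 0.0045), with a list median of 0.53. The BCL3 call was lost with the theca arrays alone (0.106).

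**Figure D4:**
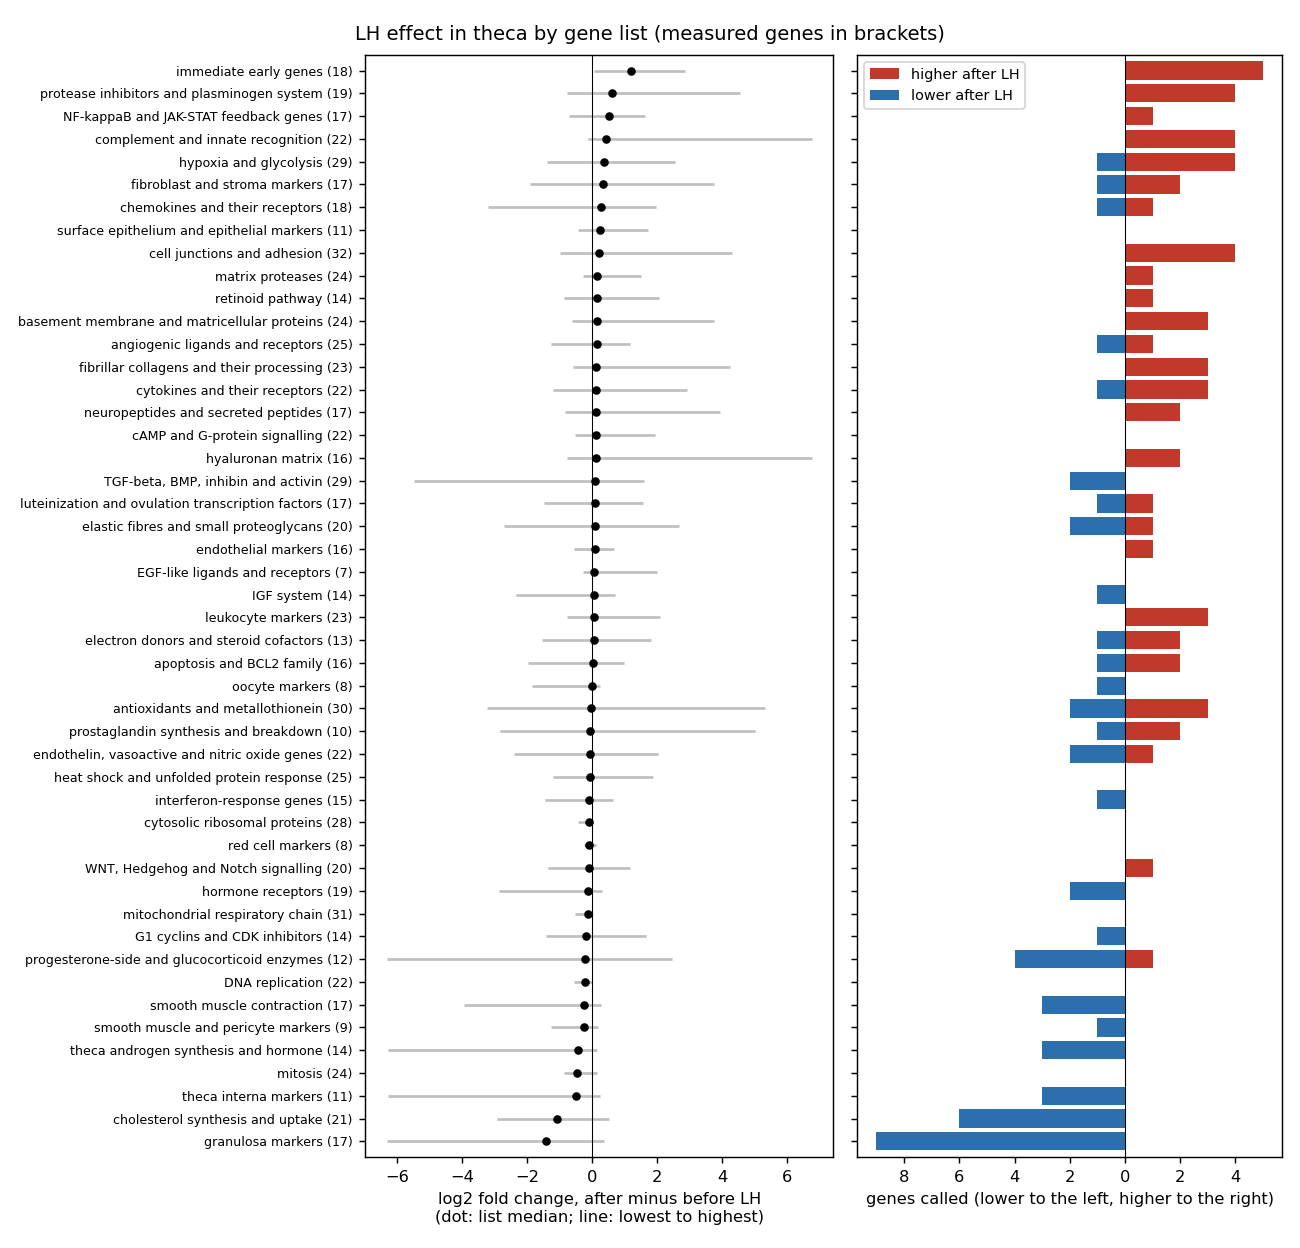
Log2 fold changes in theca (after minus before LH) of 48 gene lists, with the median and the lowest and highest gene (left), and the number of genes called higher or lower (right). Immediate early genes have the highest median, 1.21, and granulosa markers and cholesterol genes the lowest, -1.43 and -1.09.

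Junction and adhesion genes rose for 4 of 32 and fell for 0. CLDN1, a tight junction claudin, stood at 10.94, 8.25 and 10.38 after LH and 5.49, 5.21 and 5.998 before, with cow B lowest after LH (4.29 ± 0.71, adjusted p = 0.00232, stable). Its second probe set gave 3.33. CDH2, N-cadherin, stood at 8.76, 8.96 and 10.001 after LH and 7.59, 6.601 and 5.23 before (2.77 ± 0.48, adjusted p = 0.00315), and ITGA2, a collagen-binding integrin, rose by at least 0.82 (adjusted p = 0.0186). CAV1, the caveolae protein, stood at 12.01, 11.71 and 11.28 after LH and 10.32, 11.10 and 10.66 before (0.98 ± 0.24, adjusted p = 0.0312). The CDH2 call was lost with the theca arrays alone (0.084), the ITGA2 call without cow A, C or F (0.0544 to 0.0949) and the CAV1 call without cow A, B, D or G (0.107 to 0.204) and with the theca arrays alone (0.136). A dimmer CAV1 probe set was called at 1.52.

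Vascular genes had calls in both directions, where 2.34% of all genes rose and 2.85% fell. Of 25 angiogenic genes FGFR2, a fibroblast growth factor receptor, rose (1.15 ± 0.30, adjusted p = 0.0464) and PGF, placental growth factor, fell (-1.26 ± 0.31, adjusted p = 0.0336). The FGFR2 call was lost without cow A, C, D or F (0.173 to 0.258) and with the theca arrays alone (0.264) and the PGF call without any 1 of the 6 cows (0.0583 to 0.128) and with the theca arrays alone (0.1). VEGFA, the main endothelial growth factor, stood at 6.49, 6.71 and 9.69 after LH and 7.47, 7.07 and 7.53 before: cow C was above every other cow and cows A and B below all before LH (0.27 ± 0.80, adjusted p = 0.935). The endothelial marker VWF rose by at least 0.34, near the limit (adjusted p = 0.0372), and summed endothelial signals overlapped, at 3599 to 5531 after LH and 3697 to 5910 before. The VWF call was lost without cow A, C, D or G (0.0697 to 0.259) and with the theca arrays alone (0.119). EDN2, the endothelin of the ovulating follicle, stood at 6.32, 5.97 and 6.79 after LH and 6.25, 6.49 and 5.87 before in theca and was not called (0.16 ± 0.19, adjusted p = 0.793).

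Among vasoactive genes the inducible nitric oxide synthase NOS2 fell, at 5.73, 4.92 and 6.36 after LH and 8.31, 8.33 and 7.60 before (-2.40 ± 0.39, adjusted p = 0.00192, stable). NOS2 averaged 5.68 in membrane granulosa after LH and 11.27 before, and a dimmer theca probe set gave -0.17 and was not called. AGTR2, an angiotensin receptor, fell by 1.01 ± 0.21 (adjusted p = 0.0124), and ADM, the vasodilator adrenomedullin, stood at 11.81, 11.67 and 10.64 after LH and 8.24, 10.33 and 9.44 before (2.03 ± 0.44, adjusted p = 0.015). The AGTR2 call was lost without cow C or G (0.0694 to 0.0721) and with the theca arrays alone (0.0857) and the ADM call without cow A, B, D or G (0.0715 to 0.113) and with the theca arrays alone (0.145). Of 17 genes of muscle contraction 3 fell and 0 rose, with a median of -0.24. TNNT1, a slow skeletal troponin, stood at 5.92, 6.604 and 5.06 after LH and 10.26, 9.66 and 9.51 before (-3.95 ± 0.32, adjusted p = 3.4e-06, stable), and membrane granulosa averaged 4.50 after LH and 6.72 before. TNNI3, the cardiac troponin subunit that granulosa cells express, stood at 9.11, 9.45 and 8.41 after LH and 12.77, 12.33 and 12.04 before (-3.39 ± 0.25, adjusted p = 1.2e-06, stable), and membrane granulosa averaged 8.11 after LH and 12.91 before. MYH11, the myosin of smooth muscle, stood at 11.30, 10.94 and 9.76 after LH and 11.44, 11.88 and 12.47 before (-1.26 ± 0.33, adjusted p = 0.047). The MYH11 call was lost without cow B, C, D, F or G (0.0543 to 0.21) and with the theca arrays alone (0.237). Summed smooth muscle and pericyte signals were 7391 to 12938 after LH and 12055 to 22039 before.

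Metal-binding and redox genes moved in both directions, 3 upward and 2 downward of 30. The metallothioneins MT2A and MT1A, which bind zinc and copper, rose, with every cow after LH above every cow before. MT2A stood at 13.00, 12.43 and 12.84 after LH and 7.999, 8.99 and 7.79 before (4.50 ± 0.55, adjusted p = 0.000197, stable), and MT1A at 13.60, 12.71 and 13.72 after LH and 9.77, 10.13 and 9.17 before (3.66 ± 0.63, adjusted p = 0.00327, stable). VNN2, a vanin that splits pantetheine, stood at 10.27, 8.48 and 11.82 after LH and 4.45, 5.19 and 5.01 before (5.31 ± 0.77, adjusted p = 0.000847, stable), with the cows after LH spread widely. GCLC, the limiting enzyme of glutathione synthesis, fell by at least 2.72 (adjusted p = 6.09e-05, stable); it averaged 4.996 in membrane granulosa after LH and 10.54 before. GSTA4, a glutathione transferase, stood at 11.66, 11.61 and 11.13 after LH and 12.62, 12.43 and 12.22 before (-0.96 ± 0.23, adjusted p = 0.0257). The GSTA4 call was lost without cow A, D, F or G (0.0745 to 0.171) and with the theca arrays alone (0.0603).

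Genes of hypoxia and glycolysis rose for 4 of 29 and fell for 1, with a median of 0.38. PFKFB3, which makes the activator of phosphofructokinase, stood at 8.19, 8.66 and 8.13 after LH and 5.84, 6.09 and 5.44 before (2.53 ± 0.42, adjusted p = 0.00236, stable), and a probe set near the limit gave 0.14 and was not called. PFKM, the muscle form of phosphofructokinase itself, fell, at 7.85, 7.82 and 7.97 after LH and 9.37, 9.05 and 9.38 before (-1.39 ± 0.15, adjusted p = 9.75e-05, stable), and of its dimmer probe sets 1 was called at -1.10 and 1 was not, at -0.73. LDHA, lactate dehydrogenase, stood at 11.47, 11.65 and 12.71 after LH and 10.84, 10.74 and 10.95 before (1.1 ± 0.27, adjusted p = 0.0342), while its dimmer probe sets gave 0.00 and -0.24. The LDHA call was lost without cow B, C, D, F or G (0.0526 to 0.116) and with the theca arrays alone (0.164). ADM, given above, and DDIT4, a stress-induced brake on mTOR, were the other rises; DDIT4 changed by 0.93 ± 0.24 (adjusted p = 0.0402), and its call was lost without cow A, C, D, F or G (0.0643 to 0.209) and with the theca arrays alone (0.209). SLC7A5, a carrier of large neutral amino acids, stood at 9.04, 8.47 and 8.62 after LH and 5.93, 5.72 and 5.64 before (2.95 ± 0.29, adjusted p = 3.07e-05, stable).

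Of secreted peptides NTS, neurotensin, stood at 8.90, 9.03 and 8.67 after LH and 5.46, 6.28 and 5.16 before (3.23 ± 0.50, adjusted p = 0.00134, stable). OXT, oxytocin, stood at 9.89, 9.33 and 14.36 after LH and 7.497, 7.03 and 7.27 before, with cow C far above cows A and B (3.93 ± 1.01, adjusted p = 0.0409), and the call was lost without cow A, D, F or G (0.0832 to 0.167) and with the theca arrays alone (0.195). RBP4, the retinol carrier, rose in the retinoid list (1.96 ± 0.31, adjusted p = 0.00164, stable). In the BCL2 family the survival gene MCL1 rose (0.83 ± 0.15, adjusted p = 0.00471, stable), BCL2A1 fell (-1.97 ± 0.26, adjusted p = 0.000381, stable), and BNIP3L, a mitophagy receptor, rose (0.89 ± 0.19, adjusted p = 0.0137). The BNIP3L call was lost without cow A, F or G (0.06 to 0.107) and with the theca arrays alone (0.0824). PSMB9, an immunoproteasome subunit, was the 1 called of 15 interferon-response genes, where 5.19% of all genes were called, and fell (-1.45 ± 0.30, adjusted p = 0.011). The PSMB9 call was lost without cow D or F (0.055 to 0.0916). ZP2, an egg coat gene, was the 1 called of 8 oocyte markers; it fell by at least 1.52 (adjusted p = 0.027). The ZP2 call was lost without cow B, F or G (0.0676 to 0.152).

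Other genes were among the 15 largest falls or rises. ANKS4B, an adaptor of epithelial microvilli, stood at 3.89, 3.58 and 3.35 after LH, below the limit in all 3 cows, and 7.87, 7.89 and 7.84 before, a fall of at least 3.24 (adjusted p = 2.4e-08). The 3 cows before LH lay close together, and membrane granulosa averaged 3.41 after LH and 4.17 before. SLC1A3, a glutamate carrier, stood at 4.18, 4.63 and 3.83 after LH and 6.84, 7.48 and 8.51 before (-3.40 ± 0.35, adjusted p = 4.86e-05). TSPAN33, a tetraspanin, PPP1R1A, an inhibitor of protein phosphatase 1, and CRYM, a thyroid hormone-binding crystallin, fell by 3.14 ± 0.44, 3.14 ± 0.26 and 2.97 ± 0.39 (adjusted p = 0.000608, 3.4e-06 and 0.000348). These 5 falls were stable, and each gene was brighter in theca than in membrane granulosa before LH.

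SLC35G1 and CHST8, both granulosa markers here, and TRIB2, a pseudokinase, also fell, and all were brighter in membrane granulosa before LH, with means there of 7.45, 4.51 and 9.30 after LH and 11.95, 10.997 and 14.37 before. In theca CHST8, a sulphotransferase of hormone sugars, fell by at least 3.46 and SLC35G1 by 3.43 ± 0.40 (adjusted p = 2.65e-06 and 0.000142, both stable). TRIB2 stood at 9.81, 10.49 and 8.68 after LH and 12.88, 13.12 and 13.10 before (-3.37 ± 0.68, adjusted p = 0.00991). The TRIB2 call was lost without cow A, D, F or G (0.0663 to 0.0715), and its dimmer probe sets were called at -3.94 and -3.92. Of the rises NUDT11 and NUDT10, near-identical diphosphoinositol phosphohydrolases whose probes may share signal, changed by 3.80 ± 0.49 and 3.60 ± 0.41 (adjusted p = 0.000311 and 0.000128, both stable). MAP1LC3C, an autophagy protein, rose by 3.59 ± 0.59 (adjusted p = 0.00224, stable). FGG, fibrinogen gamma, stood at 6.02, 4.46 and 9.16 after LH and 3.38, 2.93 and 2.98 before, a rise of at least 1.92 (adjusted p = 0.0397) that was lost without cow A, D, F or G (0.135 to 0.172) and with the theca arrays alone (0.192).

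9 lists had 0 called genes in limma, with 178 genes in all. These were EGF-like ligands and receptors (7 genes), cAMP and G-protein signalling (22), heat shock and unfolded protein response (25), DNA replication (22), mitosis (24), the respiratory chain (31), ribosomal proteins (28), red cell markers (8) and epithelial markers (11). At an unadjusted p under 0.05, 7 of these genes were higher and 9 lower, and the share of all genes at that threshold was not counted. AREG, the EGF-like ligand amphiregulin, stood at 3.49, 3.38 and 8.99 after LH and 3.40, 3.16 and 3.32 before: cow C alone was above the limit (2.00 ± 1.56, adjusted p = 0.626).

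Differences between theca and granulosa were tested as the LH effect in theca minus that in granulosa of the same cows, with the cow as a block. Among probe sets 2192 differed from membrane granulosa (9.13%) and 2698 from antral granulosa (11.2%). Against membrane granulosa 1064 of 9155 genes differed (11.6%), 518 with a more positive effect in theca (5.66%) and 546 with a more negative effect (5.96%). Against antral granulosa 1375 differed (15%), 736 positive (8.04%) and 639 negative (6.98%). The 2 kinds of granulosa share cows with each other and with theca, so these counts do not stand apart from each other. Leaving out cow A, B or G took the probe sets that differed from membrane granulosa to 1074, 1190 and 1301, and leaving out cow B took those that differed from antral granulosa to 1753.

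The LH effect of cell division genes differed between theca and granulosa. Of 24 mitosis genes 23 had a more positive effect in theca than in membrane granulosa and 23 than in antral granulosa. The median effect was -0.45 in theca, against -2.76 in membrane granulosa and -3.30 in antral granulosa. For DNA replication 14 and 17 of 22 genes differed in that direction, with medians of -0.24 in theca, -1.19 in membrane granulosa and -1.33 in antral granulosa. CENPF, a centromere protein of dividing cells, stood at 8.65, 9.54 and 8.28 after LH and 9.38, 9.29 and 9.63 before in theca (-0.61 ± 0.30, adjusted p = 0.351), and averaged 7.64 after LH and 10.43 before in membrane granulosa. The difference in effect was 2.19 ± 0.22 (adjusted p = 0.000142). CCND2, the granulosa cyclin, fell in theca (-1.43 ± 0.26, adjusted p = 0.00507) averaged 7.19 after LH and 11.96 before in membrane granulosa, and had a difference of 3.34 ± 0.30 from membrane granulosa (adjusted p = 8.02e-05). The CCND2 call was lost without cow D (0.0574).

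Some falls were larger in theca than in membrane granulosa, and several ovulatory genes rose further in membrane granulosa. ANKS4B and CXCL14 had differences of -3.49 ± 0.28 and -2.86 ± 0.22 from membrane granulosa (adjusted p = 4.86e-05 and 4.82e-05), both more negative in theca. Membrane granulosa averaged below the lower limit at both times for these 2 genes, so a fall there could not be seen. HPGD and CYB5R3 differed by -1.71 ± 0.47 and -1.49 ± 0.37 (adjusted p = 0.0403 and 0.0246). For HPGD membrane granulosa averaged below the limit after LH, so the fall there can be understated. The CYP17A1 fall differed from that in antral granulosa (-5.88 ± 0.93, adjusted p = 0.00122) and did not pass the test against membrane granulosa (-2.89 ± 0.93, adjusted p = 0.0766), where the gene averaged 4.68 after LH and 8.05 before. PTX3, PTGS2, POSTN, TIMP1 and FOS rose in theca with differences of -2.72 ± 0.34, -3.16 ± 0.37, -3.87 ± 0.54, -1.89 ± 0.37 and -2.49 ± 0.49 from membrane granulosa, all negative (adjusted p = 0.000492, 0.000331, 0.000929, 0.00679 and 0.00751). CAV1 and TGFB2, a transforming growth factor, had the differences -5.40 ± 0.28 and -4.96 ± 0.43 (adjusted p = 3.58e-06 and 7.47e-05), with membrane granulosa means of 12.61 and 10.71 after LH and 6.23 and 4.57 before. SLC7A5 and LOXL4 went the other way, with 3.40 ± 0.33 and 2.22 ± 0.63 (adjusted p = 0.000114 and 0.0469): SLC7A5 averaged 6.65 in membrane granulosa after LH and 7.10 before. The differences of MT2A, VNN2, CLDN1 and PLAUR were not called (0.61 ± 0.34, -1.83 ± 0.66, 1.41 ± 0.80 and 0.75 ± 0.44, adjusted p = 0.326, 0.117, 0.347 and 0.373), which does not show equal effects.

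**Figure D5:**
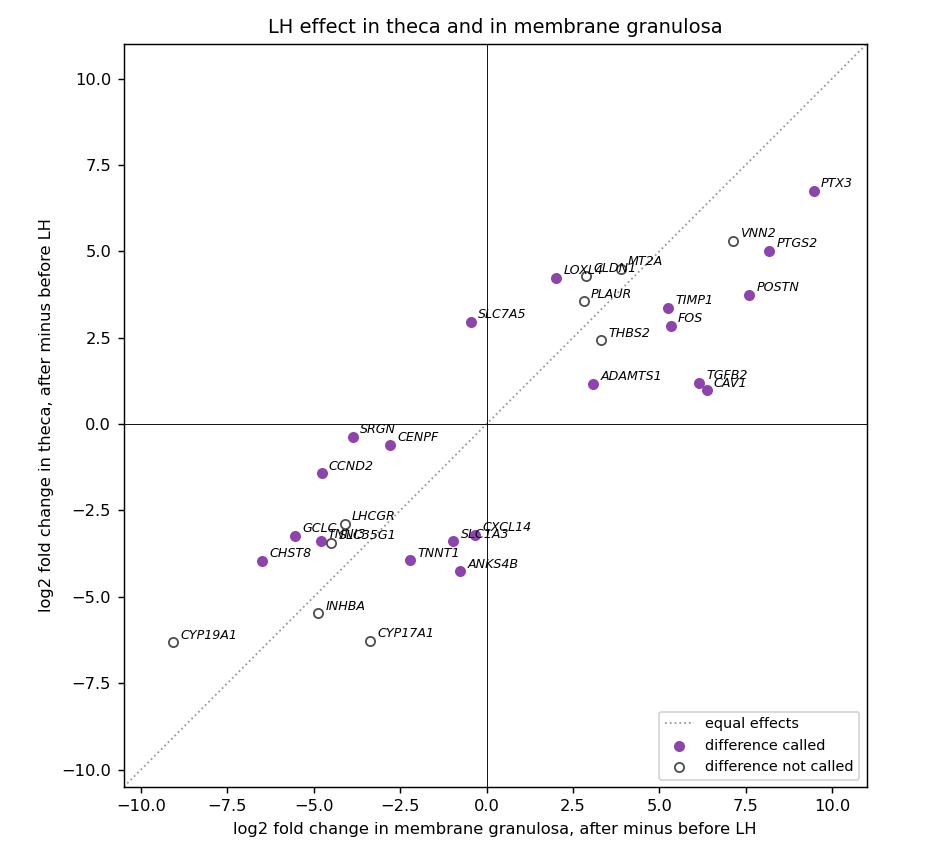
Log2 fold change in theca (vertical) against that in membrane granulosa (horizontal), both after minus before LH, for named genes; filled points have a called difference and the dotted line marks equal effects. SLC7A5 and LOXL4 lie above the line, and ANKS4B and CXCL14 lie below it, at -4.26 and -3.21 in theca.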

How the data were processed

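RNA of 18 bovine follicle samples (6 cows, 3 tissues each) was hybridised to 1-colour Affymetrix arrays. The authors deposited log2 signals, 1 per probe set and array, made with RMA in Partek 6.5, per the submitters' processing notes; further settings are not given in the sources used here. The values were not rescaled. The 112 control probe sets were left out. Of the 24016 tested, 13292 carry 1 gene symbol in the platform annotation, which can be old, 86 several and 10638 none; 9151 of 9155 genes are in RefSeq's gene table.

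The LH effect in theca was fitted with limma 3.58.1 (lmFit, eBayes) in R 4.3.3 as a mean for each of the 6 groups, over all 18 arrays and without a block, as cows differ between the times. Differences in LH effect between tissues had the cow as a fixed block. Replicate numbers name different cows after and before LH, so they pair no animals. Deviations of same-numbered theca arrays correlated at -0.09, 0.23 and -0.07. These 3 values depend on each other and cannot show whether same-numbered arrays were processed together. Alternatives were quantile normalization, centring on array medians, leaving out the 8005 dimmest probe sets, a trended and robust eBayes, 1 probe set per gene, the theca arrays alone, a 2-fold minimum, cow or replicate number as a block, and each cow left out. The fit was tested on simulated data over 24016 probe sets: for theca, log2 changes of 0.5, 1, 2 and 4 were found in 8%, 62%, 94% and 100% of 50 each, with 8 false calls among 140. The simulated noise was normal and independent between arrays, with the same spread in every group and no cow effect. These rates hold for that setting and need not hold for the real arrays. Figures were drawn with matplotlib 3.10.9 in Python 3.11.15.

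Genes named are those with the 15 largest changes each way, if called and without overlap between the groups, the 5 largest differences in LH effect each way, members of 48 gene lists (all of lists with up to 15 measured genes, otherwise the 6 of smallest adjusted p) and 20 genes of follicle function; examples are given from these. The lists hold 1096 genes, of which 819 are measured, 92 called and 78 in more than 1 list. The comparison, the lists and the rule were chosen with earlier results of these data known, so no count over a list is independent evidence. Lists are described by counts and medians and were not tested as sets. Replicates are separate cows, and their number limits the precision of every value.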

Additional observations from a re-analysis of the deposited data

Results flagged for a closer look

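Each result here was picked out because a gene's LH effect differed between theca and granulosa of the same cows in limma with the cow as a block; values are the effect in theca minus that in granulosa, on the log2 scale ± standard error, and the effects themselves are different-cow comparisons. Among genes that rose in theca, the effect was more negative than in membrane granulosa for CAV1 (-5.40 ± 0.28), P4HA3 (-4.53 ± 0.35), POSTN (-3.87 ± 0.54), TNC (-3.67 ± 0.51), PTGES (-3.37 ± 0.44), NTS (-3.17 ± 0.48), PTGS2 (-3.16 ± 0.37), PTX3 (-2.72 ± 0.34), FOS (-2.49 ± 0.49), TIMP1 (-1.89 ± 0.37), SOX4 (-1.61 ± 0.30), PCOLCE2 (-1.50 ± 0.36), TSPO (-1.24 ± 0.32), NUDT11 (-1.10 ± 0.24) and IER2 (-0.99 ± 0.20), with adjusted p from 3.58e-06 to 0.0292. Among genes that rose in theca, the effect was more positive than in membrane granulosa for SLC7A5 (3.40 ± 0.33), LOXL4 (2.22 ± 0.63), LEF1 (1.53 ± 0.26) and DDIT4 (1.35 ± 0.37), with adjusted p from 0.000114 to 0.0469. Among genes that fell in theca, the effect was more negative than in membrane granulosa for ANKS4B (-3.49 ± 0.28), CXCL14 (-2.86 ± 0.22), SLC1A3 (-2.43 ± 0.43), CRYM (-2.15 ± 0.53), ASPN (-1.95 ± 0.51), TNNT1 (-1.73 ± 0.36), HPGD (-1.71 ± 0.47), CYB5R3 (-1.49 ± 0.37), HSD17B10 (-1.31 ± 0.18), GSTA4 (-1.24 ± 0.19), PPP1R1A (-1.17 ± 0.22) and MVK (-0.83 ± 0.17), with adjusted p from 4.82e-05 to 0.0403. Among genes that fell in theca, the effect was more positive than in membrane granulosa for CCND2 (3.34 ± 0.30), NOS2 (3.19 ± 0.56), IL6R (3.10 ± 0.34), CHST8 (2.52 ± 0.38), GCLC (2.31 ± 0.35), TRIB2 (1.69 ± 0.29), HSD17B1 (1.53 ± 0.41), TNNI3 (1.41 ± 0.27) and PGF (1.24 ± 0.35), with adjusted p from 8.02e-05 to 0.0477. Among genes not called in theca, the effect was more negative than in membrane granulosa for TGFB2 (-4.96 ± 0.43), KIT (-2.71 ± 0.70) and ADAMTS1 (-1.93 ± 0.31), with adjusted p from 7.47e-05 to 0.0292. Among genes not called in theca, the effect was more positive than in membrane granulosa for CENPF (2.19 ± 0.22), PLOD2 (1.87 ± 0.31) and ITGAV (1.28 ± 0.33), with adjusted p from 0.000142 to 0.0295. For ANKS4B and CXCL14 membrane granulosa averaged below the lower limit at both times, so a fall there could not be seen. For TNNT1, HPGD, ASPN and CHST8 it averaged below the limit after LH, so the fall there can be understated. GCLC and CHST8 lay below the limit on all theca arrays after LH, so their falls in theca can be understated. The same holds for any other gene listed in this section with a level below the limit in either tissue.

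Genes listed next differed from antral granulosa and did not pass the test against membrane granulosa. Among genes that rose in theca, the effect was more negative than in antral granulosa for THBS2 (-1.87 ± 0.49), HSD11B1 (-1.42 ± 0.37) and PLAT (-1.16 ± 0.28), with adjusted p from 0.0179 to 0.0266. Among genes that rose in theca, the effect was more positive than in antral granulosa for MAP1LC3C (2.95 ± 0.67), ITGA2 (2.69 ± 0.46), C1S (2.01 ± 0.55), PFKFB3 (1.70 ± 0.44) and LDHA (1.34 ± 0.29), with adjusted p from 0.00198 to 0.0325. Among genes that fell in theca, the effect was more negative than in antral granulosa for CYP17A1 (-5.88 ± 0.93), TSPAN33 (-1.84 ± 0.51), BCL2A1 (-1.65 ± 0.37) and NR5A1 (-0.90 ± 0.26), with adjusted p from 0.00122 to 0.0449. Among genes not called in theca, the effect was more positive than in antral granulosa for SPP1 (3.89 ± 1.15), VEGFA (3.33 ± 0.55), CYP11A1 (2.57 ± 0.71) and FSHR (1.40 ± 0.39), with adjusted p from 0.0017 to 0.0482. The cause of these differences was not tested, nor was the part of granulosa RNA on the theca arrays in them.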

How the results depend on the processing

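The count of called probe sets for the LH effect in theca, 941, stayed within 1.5 times under quantile normalization (925), centring (939), leaving out the 8005 dimmest probe sets (899), eBayes with trend and robust (907), a random cow block (1042) and the replicate block (1204, with 555 higher and 649 lower). It was 524 with 1 probe set per gene, where fewer are tested, 514 with the theca arrays alone, where the fit has fewer arrays, and 569 at a 2-fold minimum. Leaving out 1 cow gave 439 (cow A) to 1016 (cow C), with 465 without cow D and 571 without cow G. Genes of the lists gave 92 calls and 55 to 107 without 1 cow, lowest without cow D and, at 58, without cow A. The difference from membrane granulosa gave 2192 calls, 1184 with 1 probe set per gene, 1016 with no block, 1292 with the replicate block, and 1074 to 2192 without 1 cow; cows A, B and G took it to 1074, 1190 and 1301. The difference from antral granulosa gave 2698, 1506 with 1 probe set per gene, 1485 with no block, 1769 with the replicate block, and 1753 (without cow B) to 2401 without 1 cow. In the replicate block the pairing has no basis in the animals, while the cow block pairs tissues of the same cow. Over the 125 genes named, no change turned its direction while called. Of the alternative values of single genes, 1495 kept their side of the threshold, 222 lost a call and 23 gained one; fits without 1 cow and of the theca arrays alone account for most. The cause of these changes was not tested. The arrays limit what can be seen at low signal: below 4.62 a level is only a bound, and INSL3 lay near the top of the scale.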

Other observations

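The groups did not overlap for 23.4% of all genes, while 5.19% were called in the fit of all arrays. SPP1, ITGAV, PLOD2 and CDKN1A are examples without overlap that missed the threshold. SPP1, osteopontin, a secreted matrix and cytokine-like protein, stood at 10.10, 9.003 and 10.55 in cows A, B and C after LH, against 7.33, 6.31 and 6.18 in cows D, F and G before (3.28 ± 0.92, adjusted p = 0.0628 in limma, and 0.0223 with the theca arrays alone). ITGAV, a subunit of the integrins that bind it, stood at 10.61, 10.36 and 12.18 after LH and 9.28, 9.46 and 9.30 before (1.70 ± 0.46, adjusted p = 0.054), with cow C highest. PLOD2, a lysyl hydroxylase of collagen, stood at 10.005, 10.49 and 11.87 after LH and 9.24, 9.27 and 9.02 before (1.61 ± 0.51, adjusted p = 0.106). CDKN1A, a brake on cyclin-dependent kinases, stood at 8.46, 8.32 and 9.93 after LH and 7.44, 7.25 and 7.03 before (1.66 ± 0.57, adjusted p = 0.143). Cow C also held the highest level of PLOD2 and CDKN1A.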
